A study of Mus musculus with 2 samples.

Results

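The mouse long non-coding RNAs (lncRNAs) 4732463B04Rik, Gm26697 and Gm16984 have exons that lie opposite coding exons of fatty acid metabolism genes, and they are described here in liver on a high fat and a normal diet. They are 3 of the 614 lncRNAs with Ensembl identifiers in the deposited table of known lncRNAs, and they were picked by the gene that each overlaps and by their own values in these libraries. 4732463B04Rik was picked as a well-covered lncRNA with a ratio beyond 2-fold, Gm26697 as one of the most abundant, and Gm16984 as a well-covered lncRNA with a small difference. Their levels and ratios are therefore a description, and no test of them is given.

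The high fat diet library and the normal diet library each came from wildtype C57BL/6 mouse liver at postnatal week 27, and total RNA was sequenced. The high fat diet contained 60% fat and was given for 23 weeks. The labels call the material hepatocytes, whereas the protocol describes frozen whole liver, and they do not say how many animals a library holds. There was 1 library per diet, so there is no replicate error, and all intervals are exact (Clopper-Pearson) 95% intervals that cover counting error only. From its values, the lncRNA table was taken as scaled to totals of 193538 (high fat) and 242194 (normal) reads, counted as pairs of 2 reads. No label states the counted unit. None of 34 coding markers of hepatocytes and of other liver cells is listed in this lncRNA table, so the labelled cell type was not checked against them. Of 11 lncRNA markers of other liver cells 2 are listed, Gm12840 (46 reads on high fat and 88 on normal diet) and Mir155hg (8 and 2). The part of such cells in the results below was not tested.

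Fatty acids enter hepatic metabolism as acyl-CoA esters. Slc27a2 encodes a very long chain acyl-CoA synthetase that also takes part in fatty acid uptake, Acot3 and Acot4 encode peroxisomal acyl-CoA thioesterases that cut acyl-CoA back to the free acid and CoA, and Eci2 and Eci3 encode enoyl-CoA isomerases that let the oxidation of unsaturated fatty acids proceed. Several of these genes are known targets of PPAR-alpha, the fatty acid sensing receptor of the liver. An antisense lncRNA is transcribed from the opposite strand of a coding gene, and where exons of the pair overlap, a read can be assigned to one or the other only if the strand is known. No source used here states whether the counting used strand, so in the stretches shown next lncRNA reads and coding reads cannot be told apart. The coding genes themselves are not listed in the table and were not measured here.

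The positions are those that GENCODE M21 (genome build GRCm38) gives for the deposited Ensembl identifiers. The deposited tables hold no positions, and the submitters' processing notes name the build mm8, whose coordinates differ. 4732463B04Rik (ENSMUSG00000097762, antisense biotype, chr12:84039469-84053807, minus strand) has 3 exons and 2932 exon bases. Its first exon, 312 bases long, lies wholly within coding sequence of Acot3, and its second exon of 647 bases covers 603 bases of coding sequence of Acot4 and 12 bases of its UTR. The third exon of 1973 bases lies in no coding exon, but within an intron of Acot4. The whole lncRNA also lies within the span of Gm49366, another coding gene on the opposite strand, and shares no exon base with it. In all, 31.6% of its exon bases are opposite exons of the thioesterase genes.

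Gm26697 (ENSMUSG00000097458, lincRNA biotype, chr2:126521202-126553662, minus strand) has 4 exons and 1760 exon bases, of which 419 (23.8%) are opposite coding sequence of Slc27a2. All of these are in its first exon of 449 bases, and the other exons of 216, 202 and 893 bases are free of coding exons. Its annotated start lies 1255 bases inside the annotated start of Slc27a2, and that of 4732463B04Rik lies 1663 bases inside the start of Acot3, so both lncRNAs begin within the coding gene and run out of it past its start. The first 30 bases of Gm26697 lie in the intron just beyond the coding exon.

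Gm16984 (ENSMUSG00000085962, antisense biotype, chr13:34963982-34990452, plus strand) has 3 annotated transcripts and 1018 exon bases. Of these, 189 (18.6%) are opposite coding sequence of Eci2, all in the last exon, of 484 bases, of the longest transcript. The other two transcripts have no base opposite a coding exon. Each of the 3 transcripts nevertheless has exons within the span of Eci2 on the other strand. Unlike 4732463B04Rik and Gm26697, Gm16984 does not begin inside a coding gene. Its start is separated by 171 bases from that of Eci3 on the other strand, so it leaves a shared stretch of upstream sequence with Eci3 and ends inside Eci2. Among 177 listed lncRNAs with at least 50 bases opposite coding exons and at least 20 reads, the median share of exon bases lying opposite was 25%, and the shares of the 3 lncRNAs, 18.6% to 31.6%, lie on both sides of it.

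**Figure D1:**
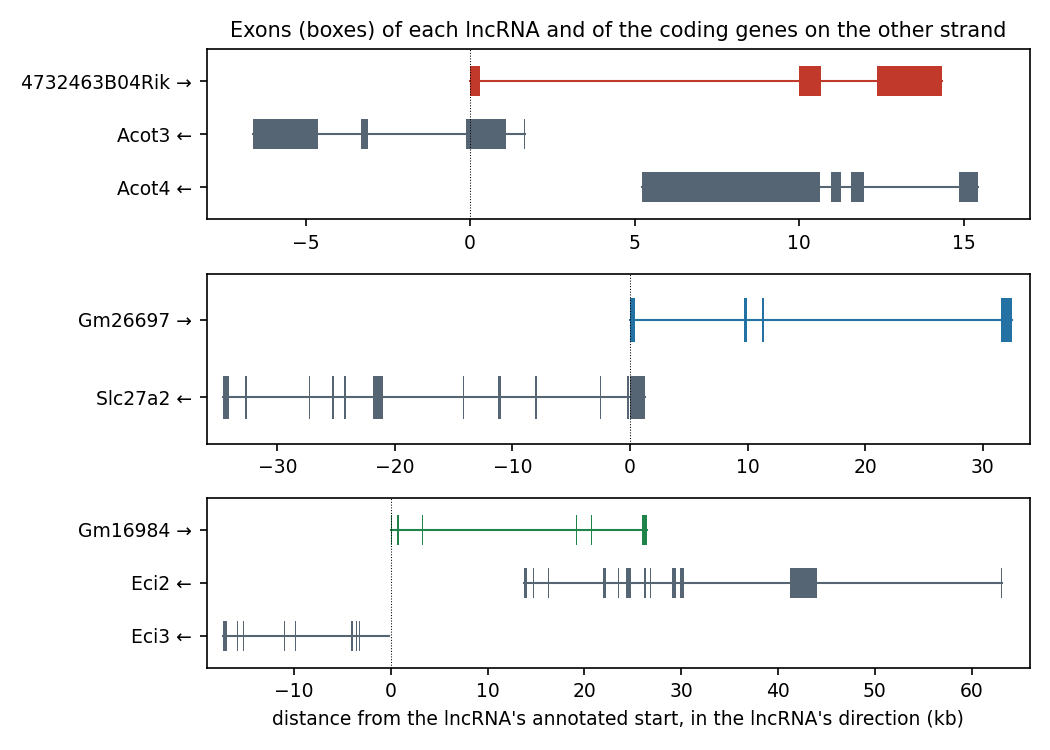
Exons (boxes) and gene spans (lines) of each lncRNA and of coding genes on the opposite strand. Positions are distances in kb from the annotated start of the lncRNA in its own direction. Gm49366, a coding gene whose span covers 4732463B04Rik, is not drawn. 4732463B04Rik starts within the first coding exon of Acot3 and Gm26697 just beyond that of Slc27a2, and Gm16984 starts between Eci3 and Eci2 and reaches a single coding exon of Eci2.

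The stretches that lie opposite coding sequence are shown because they are where lncRNA and coding reads meet. Each is read 5′ to 3′ along the lncRNA from the GENCODE M21 transcript, and its reverse complement was found in a transcript of the partner gene. Capitals mark bases that fall in a run of 50 bases also held, in reverse complement, by a coding gene other than the partner. The first is 300 of the 312 bases opposite Acot3 (chr12:84053508-84053807, minus strand), the second 120 of the 603 bases opposite Acot4 (chr12:84043674-84043793, minus strand), the third 120 of the 419 bases opposite Slc27a2 (chr2:126553513-126553632, minus strand) and the last all 189 bases opposite Eci2 (chr13:34990181-34990369, plus strand).
4732463B04Rik opposite Acot3: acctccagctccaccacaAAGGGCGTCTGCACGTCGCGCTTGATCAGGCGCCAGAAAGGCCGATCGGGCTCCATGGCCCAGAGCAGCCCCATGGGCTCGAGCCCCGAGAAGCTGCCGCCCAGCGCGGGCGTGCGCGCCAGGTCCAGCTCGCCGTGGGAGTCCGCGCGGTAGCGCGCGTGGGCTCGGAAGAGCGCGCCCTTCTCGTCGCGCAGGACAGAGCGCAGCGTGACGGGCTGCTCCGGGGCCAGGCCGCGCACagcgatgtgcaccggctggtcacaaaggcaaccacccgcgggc
4732463B04Rik opposite Acot4: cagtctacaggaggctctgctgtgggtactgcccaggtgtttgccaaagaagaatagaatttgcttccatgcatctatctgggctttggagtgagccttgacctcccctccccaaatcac
Gm26697 opposite Slc27a2: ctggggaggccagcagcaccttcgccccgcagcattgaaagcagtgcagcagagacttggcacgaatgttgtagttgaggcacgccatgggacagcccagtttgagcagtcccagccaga
Gm16984 opposite Eci2: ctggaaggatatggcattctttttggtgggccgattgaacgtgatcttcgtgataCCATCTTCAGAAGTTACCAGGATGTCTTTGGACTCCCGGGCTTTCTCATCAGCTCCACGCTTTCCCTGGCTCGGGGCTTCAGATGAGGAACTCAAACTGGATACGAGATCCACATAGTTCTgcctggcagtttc

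The capitals show that the first exon of 4732463B04Rik is not unique to the Acot3 locus. Of the 312 bases, 239 (76.6%) fall in 50-base runs that other thioesterase genes also hold. Among the 263 runs of 50 bases in this stretch, 58.6% were found in Acot1, 55.5% in Acot5, 46.0% in Acot4, 41.8% in Acot6 and 6.84% in Acot2. Reads of 50 bases from such a run would match both places, and the sources used here give no read length. The stretch opposite Acot4 held no such run in another coding gene.

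Gm16984 showed the same on a smaller scale. Of its 189 bases opposite Eci2, 121 (64.0%) fall in runs shared with Eci3, the neighbouring paralogue, which held 51.4% of the 140 runs of this stretch. Gm26697 had no 50-base run in common with any gene other than Slc27a2. Over the whole transcripts, 70.6% of the 50-base runs of 4732463B04Rik, 78.3% of those of Gm26697 and 87.2% of those of Gm16984 were found in no other annotated transcript on either strand. The unshared sequence of 4732463B04Rik lies mostly in the third exon, where 17 of 1924 runs were shared, against 263 of 263 in the first and 568 of 598 in the second. Intron sequence, such as that of Acot4 around the third exon, was not searched.

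The sequence between the starts of Eci3 and Gm16984 is shown because the lncRNA and the isomerase gene leave it in opposite directions (chr13:34963811-34963981, plus strand, from the RefSeq promoter table, GRCm38.p6). Capitals mark a match to GGGCGG, the core of the GC box bound by Sp1 family factors.
Between Eci3 and Gm16984: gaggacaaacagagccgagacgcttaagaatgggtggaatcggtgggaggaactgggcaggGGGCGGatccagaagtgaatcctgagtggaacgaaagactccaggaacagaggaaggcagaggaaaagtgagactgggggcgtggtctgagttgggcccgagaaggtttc

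It holds 7 CG dinucleotides in 171 bases and has a GC content of 56.7%. The match shown overlapped no other searched motif. GGGCGG, searched on both strands, was found in 35.7% of all 32851 promoters of 300 bases in the table. Of the 3 lncRNAs, Gm16984 is the 1 with an entry there. Its 300-base promoter held neither CCAAT (37.4% of all promoters), nor the half-site AGGTCA of nuclear receptors (16.3%), nor the PPAR response element AGGTCANAGGTCA (0.0396%), on either strand. The promoters of Acot3, Acot4 and Slc27a2 each held AGGTCA, and those of Eci2 and Eci3 did not. The full element was in none of them. Only its exact letters within 300 bases were searched, and 0.0396% of all promoters hold them. Their absence therefore does not show whether PPAR-alpha acts on these genes.

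The acyl-CoA synthetase partner Gm26697 was by far the most abundant of the 3 lncRNAs. It had 11774 reads on the high fat diet and 17890 on the normal diet, which is 60836 and 73866 CPM (reads per 1000000 reads of the known lncRNA table). It ranked 5 and 4 by reads among the 614 lncRNAs. Its high fat diet level was 82.4% of its normal diet level (95% interval 79.7 to 85.1), a log2 ratio of -0.28 (-0.33 to -0.23). The difference is larger than counting error and far from 2-fold, and without a second library per diet it cannot be set against the spread between animals. In bulk tissue, fewer cells that hold an RNA and less of it per cell cannot be told apart, here and below. Nor can lncRNA reads be told from reads of the partner genes in the shared exon bases, or from their unspliced reads in introns. The levels, ranks and ratios given here and below may therefore include coding reads, whose part was not tested.

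The isomerase partner Gm16984 had 1770 reads on the high fat diet and 2712 on the normal diet, or 9145 and 11198 CPM. The ratio was close to that of Gm26697, at 81.7% of the normal diet level (75 to 89.0) and a log2 ratio of -0.29 (-0.42 to -0.17). With fewer reads its interval is wider and contains the whole interval of Gm26697.

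The thioesterase partner 4732463B04Rik had 772 reads on the high fat diet and 2340 on the normal diet, or 3989 and 9662 CPM. It was lower by the larger step, to 41.3% of the normal diet level (36.7 to 46.4), with a log2 ratio of -1.28 (-1.45 to -1.11). It ranked 16 by reads on the normal diet and 45 on the high fat diet, while Gm16984 ranked 13 and 18.

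**Figure D2:**
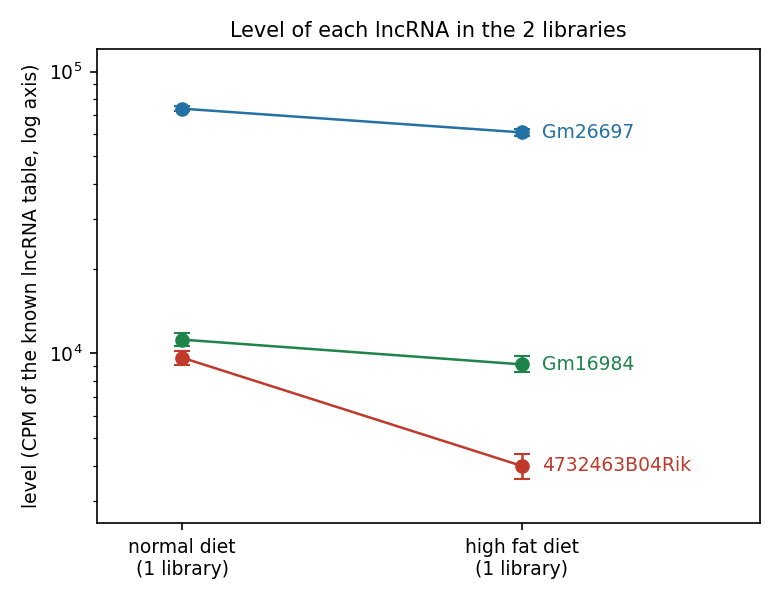
Level of each lncRNA in CPM (log axis) in the normal diet and the high fat diet library, with exact 95% counting intervals as bars. Gm26697 and Gm16984 run in parallel, at 82.4% and 81.7% of their normal diet level, and 4732463B04Rik stands at 41.3%.

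The exons of the 3 lncRNAs differ in length, so levels between them were compared per kb of exon. In CPM per kb, Gm26697 stood at 34570 (high fat) and 41970 (normal), rank 3 and 2 of 360 annotated lncRNAs with at least 20 reads. Gm16984 stood at 8984 and 11000 (rank 11 and 8), and 4732463B04Rik at 1360 and 3295 (rank 65 and 26). The median lncRNA had 288.3 and 323.1 CPM per kb, so each of the 3 was above it in both libraries. The order Gm26697, Gm16984, 4732463B04Rik was the same in both.

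Setting one lncRNA against another inside the same library removes the scaling of the table. For each 100 reads of Gm26697 there were 15.0 reads of Gm16984 on the high fat diet (14.0 to 16.1) and 15.2 on the normal diet (14.3 to 16.1). That proportion differed by less than its counting error. In contrast, 4732463B04Rik had 6.56 reads per 100 of Gm26697 (5.90 to 7.27) on the high fat diet and 13.1 (12.3 to 13.9) on the normal diet. Against Gm16984 it had 43.6 (38.6 to 49.2) and 86.3 (79.7 to 93.4). The lower proportion of 4732463B04Rik in the high fat diet library thus does not depend on the total used for scaling. The contrast itself was largely set by the choice of 4732463B04Rik for its ratio and of Gm16984 for a small difference. Together the 3 lncRNAs held 7.40% of the table's reads on the high fat diet (7.23 to 7.56) and 9.47% on the normal diet (9.31 to 9.64), most of them from Gm26697.

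**Figure D3:**
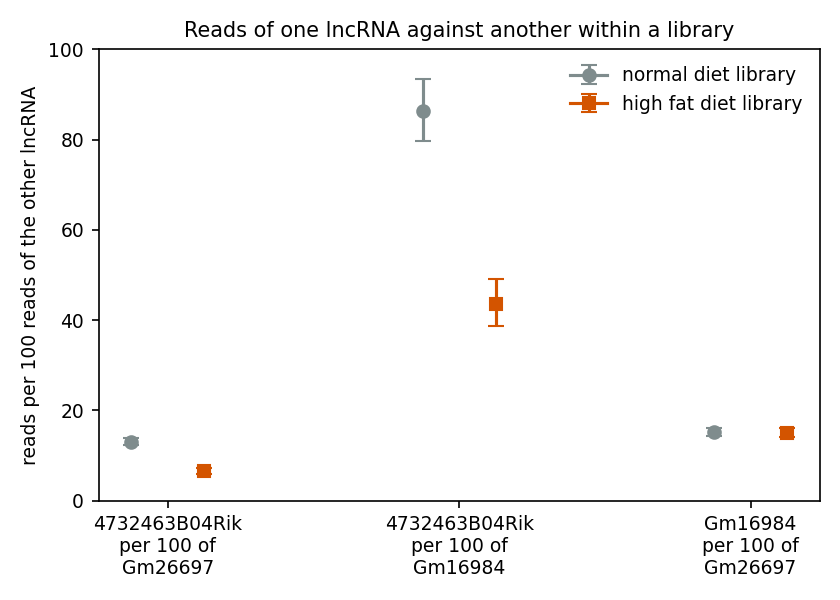
Reads of one lncRNA per 100 reads of another in the same library, with exact 95% counting intervals. Gm16984 per 100 of Gm26697 is 15.2 and 15.0, while both proportions of 4732463B04Rik, which was picked for its ratio, are lower in the high fat diet library.

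A call, higher or lower, required a 2-fold or larger difference in CPM and 20 or more reads in the library with more. By this rule 58 of 364 lncRNAs were called (15.9%), 28 higher (7.69%) and 30 lower (8.24%). All 3 lncRNAs reached the read minimum, and 4732463B04Rik was called lower. Since the members were picked with these values in view, nothing is read from 1 of 3 against that background. Among the 364, 4732463B04Rik had the 22nd lowest ratio, Gm16984 the 106th and Gm26697 the 113th. Counting error is larger for lncRNAs with few reads, which fill the extremes, and among the 43 that had 1000 or more reads in either library 4732463B04Rik had the lowest ratio but 1, after Gm26584 (log2 ratio -2.43). Gm16984 was 5th and Gm26697 8th of these 43. Among the 177 with at least 50 bases opposite coding exons, the ranks were 6, 38 and 41. 4732463B04Rik was picked as well covered and beyond 2-fold, so its low ranks were largely set by that choice. Nothing is read from the ranks.

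**Figure D4:**
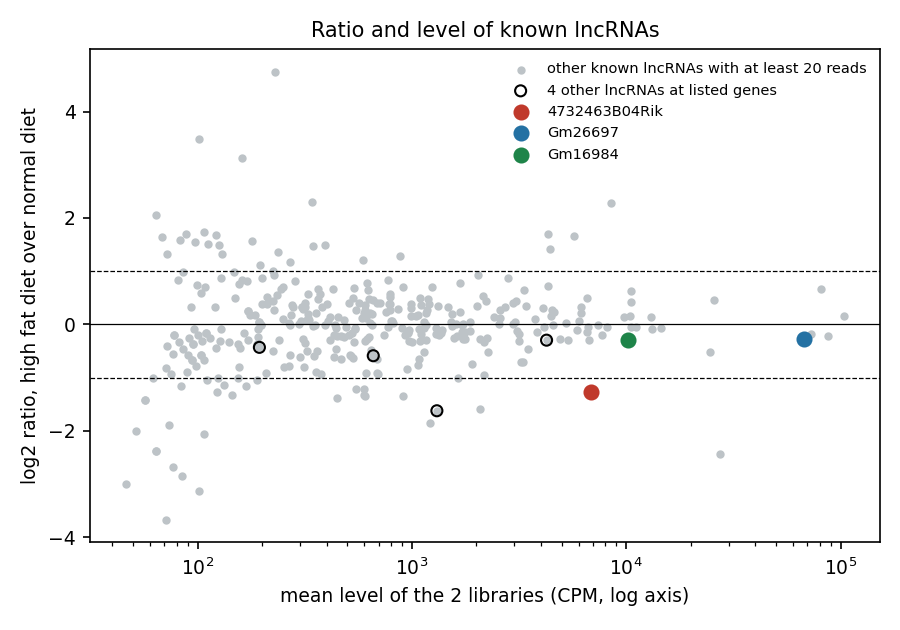
Log2 ratio (high fat diet over normal diet) against mean CPM (log axis) for known lncRNAs with at least 20 reads, with dashed lines at 2-fold. 4732463B04Rik, which was picked as well covered and for its ratio, lies below the lower dashed line, and Gm26697 and Gm16984 lie just below 0.

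The authors' deposited table gives log2 fold changes of -1.28, -0.28 and -0.29 for 4732463B04Rik, Gm26697 and Gm16984, the same as the ratios above. In the authors' deposited table the adjusted p-values are 5.68e-58, 3.28e-32 and 2.23e-05, yet the column of significant changes marks, of the 3, 4732463B04Rik alone. With 1 library per diet these p-values hold no spread between animals.

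Other lncRNAs at genes of fatty acid metabolism were looked up with a list of 222 coding genes in 10 roles, of which 220 are in the annotation. Listed lncRNAs whose exons lie opposite exons of such a gene numbered 4, the 3 above and D230017M19Rik. D230017M19Rik shares 175 of its 5335 exon bases with Pecr, a peroxisomal enoyl-CoA reductase gene. Its reads numbered 738 on the high fat and 1134 on the normal diet (log2 ratio -0.30, interval -0.49 to -0.10), a ratio near those of Gm26697 and Gm16984, the lncRNAs that were not called. Of these 4, 1 was called lower and 0 higher, beside 8.24% called lower over the 364, and their median log2 ratio was -0.29, beside -0.01 over the 364. The 1 call is 4732463B04Rik, which was picked for a ratio beyond 2-fold, and 3 of the 4 were picked with these values known, so the count and the median were largely set by that choice and nothing is read from them.

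Another 4 lncRNAs overlap the span of a listed gene or start within 5 kb of its start, without sharing exon bases with it. Gm26608 starts next to Insig1, a brake on the processing of SREBP and so on lipid synthesis, with 257 bases between the genes and opposite directions. With 124 reads on the high fat and 478 on the normal diet it was 3.08-fold lower (2.32 to 4.14), the 1 call among the 4. Of these 4, Gm15611 was under the read minimum and could not be called. Over the 364 lncRNAs 8.24% were called lower, and nothing is read from 1 call. The arrangement of Gm26608 resembles that of Gm16984 and Eci3, while its ratio was the lower of the pair. The remaining ones were 1500035N22Rik within Prkag2, a subunit of AMP-activated protein kinase (102 reads against 192, log2 ratio -0.59, -1.11 to -0.08), Gm26561 over Lpin2, a phosphatidate phosphatase gene on the same strand (32 against 54, -0.43, -1.42 to 0.51), and Gm15611 near Crot, a peroxisomal carnitine acyltransferase gene (2 against 4 reads, under the minimum).

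In all 7 lncRNAs at listed genes that reached the read minimum, the value in the high fat diet library was below that in the normal diet library, with a median log2 ratio of -0.43. Ratios below 1 were found for 192 of the 364 lncRNAs (52.7%). The ratios of the 7 ranged from -1.62 to -0.28, and with the total of lncRNAs that share no base with coding exons as scale, from -1.53 to -0.18. The list was written with earlier results of these data known and 3 of the 7 are the members themselves, so this is a count for these libraries and not a test of the pathway.

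**Figure D5:**
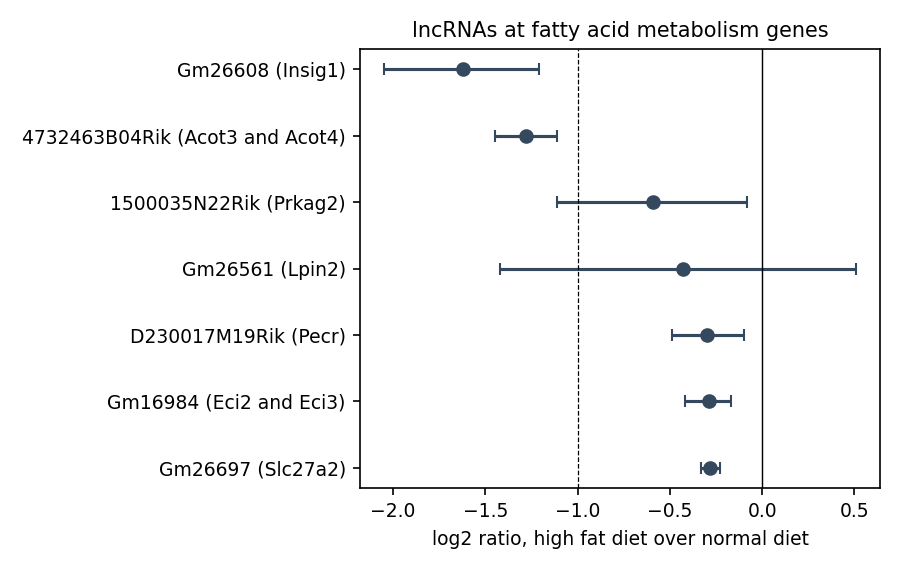
Log2 ratio (high fat diet over normal diet) with exact 95% counting intervals for the 7 lncRNAs at listed fatty acid metabolism genes that reached 20 reads, with the coding gene in brackets and a dashed line at 2-fold. Gm26608 and 4732463B04Rik lie beyond 2-fold, and Gm26561 is the one whose interval includes 0.

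Within 500 kb of the 3 lncRNAs the table lists 1 other lncRNA, Gm26623 at 418 kb from 4732463B04Rik, with 6 reads on the high fat and 12 on the normal diet (log2 ratio -0.68, -3.30 to 1.55). This is too few reads to show whether other lncRNAs of the region differ. The lncRNAs of at least 200 reads whose ratio was closest, out of 140, were Gm42161 (66 reads against 208) and Gm26745 (100 against 316) for 4732463B04Rik, with log2 ratios of -1.33 and -1.34. For Gm26697 they were Gm26888 (308 against 468, -0.28) and Gm37724 (202 against 308, -0.29). For Gm16984 they were ENSMUSG00000099597 (1164 against 1782, -0.29), which is not in the annotation used, and Gm26749 (928 against 1418, -0.29). With 1 library per diet such likeness rests on a single ratio.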

How the data were processed

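RNA sequencing of total RNA from mouse liver was deposited as tables of known and numbered lncRNAs with 1 column per library, mapped by the library titles and grouped by the diet label. The column headers call the deposited values normalized. That they are CPM, scaled within each table, was taken from their sums. The authors also deposited a fold change (a ratio of the CPM values), its log2 and p-values. The submitters' processing notes list DESeq, HISAT2, HTSeq and build mm8. The sources used here give neither their versions and roles nor the annotation and the use of strand.

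The smallest CPM value of a column was taken as 1 read, and division by it turned 100% of the values of known lncRNAs into whole numbers (tolerance 1e-06), and the total was 1000000 divided by that smallest value (5.167 CPM in the high fat diet and 4.129 CPM in the normal diet library). Apart from values of 1 read, taken as 0, all were even, so intervals were computed on pairs of 2 reads. No label or header states this unit, so a unit of 2 may stand for a single counted read. Python 3.11.15 with SciPy 1.17.1 was used. The call rule and intervals were tried on counts simulated with counting error alone, which cannot show how they hold under spread between animals.

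Identifiers were looked up in GENCODE M21, where 606 of 614 matched. Named lncRNAs are the 3 members, lncRNAs overlapping a listed fatty acid gene or starting within 5 kb of its start, and per member the 2 lncRNAs of at least 200 reads with the closest ratio. The 2 listed lncRNA markers and the neighbour Gm26623 are named beside this rule, and Gm26584 was named after its value was seen. The members and lists were chosen with earlier results of these data known. Alternatives changed the scaling, pseudocount, read minimum, fold and overlap.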

Additional observations from a re-analysis of the deposited data

How the results depend on the processing

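The log2 ratio of 4732463B04Rik ranged from -1.29 to -1.18 over 6 alternatives (median-ratio scaling, a total without the 5 most abundant lncRNAs, pseudocounts of 1 and 5 reads, the authors' deposited value, and a total of lncRNAs sharing no base with coding exons, the last chosen after the data were seen). It was called lower under each of these, which was largely set by its choice as beyond 2-fold. The deposited value is a ratio of the same CPM values, and the pseudocounts are small beside its reads. Over the same alternatives Gm26697 ranged from -0.29 to -0.18 and Gm16984 from -0.31 to -0.20, and neither was called. The value of -0.18 for Gm26697, from the total of lncRNAs sharing no base with coding exons, lies outside its counting interval, and that total moves the median of all ratios by 0.10. Called known lncRNAs numbered 58, and 146 without a read minimum, 19 with at least 100 reads, 124 at 1.5-fold, 15 at 4-fold and 37 when the adjusted p deposited by the authors also had to be 0.05 or less, each of which changes by construction what can be called. Of the 4 lncRNAs opposite exons of listed genes 1 was called, and 0 at 4-fold. With those overlapping or near a listed gene added, 2 of 7 were called. Over the 364 lncRNAs 15.9% were called at 2-fold. The members were picked with these values known, so nothing is read from these counts. No paired analysis was possible because there is a single library on each diet, and for the same reason none could be left out. Depth limits what can be said of lncRNAs with few reads, such as Gm15611, Mir155hg, Gm26623 and Gm26561, and the intervals leave out the spread between animals.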

Other observations

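None of the 272 numbered lncRNAs, which were tabulated separately for the same libraries, was listed with the same pair of read numbers as 4732463B04Rik, Gm26697 or Gm16984. Since no positions are given for the numbered lncRNAs, this does not show whether any of them overlaps these loci.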
